A study of Mus musculus with 8 samples.

Results

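The genes described here encode metallothioneins and antioxidant enzymes of the mouse olfactory mucosa, the nasal lining that holds the olfactory neurons. The list names 10 genes: Mt1, Mt2, Hmox1, Sod1, Sod2, Cat, Gpx1, Nqo1, Prdx1 and Gclm. A probe set, the group of array spots that reports on a transcript, was taken for a gene where the platform annotation gives that symbol alone. This gave 11 probe sets for 9 of the 10 genes, among 8252 named genes in the table, and all 11 passed the filter on dim signals. The 2 probe sets of Prdx1, a peroxiredoxin, also carry another gene symbol, so no value is given for it.

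RNA was measured on 8 single-colour expression arrays, with 2 in each of 4 groups: Ccl3-/- mice injected with CCL3, C57BL/6 mice injected with CCL3, Ccl3-/- mice injected with the carrier alone, and C57BL/6 mice injected with the carrier alone. CCL3 is a secreted attractant of macrophages and monocytes. Every group had undergone removal of both olfactory bulbs, the brain region to which olfactory neurons project. Age, sex, dose and time after surgery are not stated, and neither is whether replicates were separate animals. The p-values therefore reflect variation among the arrays alone, and part of it may be technical.

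Metallothioneins are small cysteine-rich proteins that bind zinc and copper and buffer their free concentration. In mouse, Mt1 and Mt2 are neighbouring genes that are induced by metals through the zinc-sensing factor MTF1, which binds metal response elements, and also by glucocorticoids, inflammatory cytokines and oxidative stress. The antioxidant enzymes work in sequence: superoxide dismutases turn superoxide into hydrogen peroxide, and catalase and glutathione peroxidases remove the peroxide. Hmox1, Nqo1 and Gclm are standard targets of NRF2, a factor that is freed from its inhibitor KEAP1 by electrophiles and oxidants. Nasal mucosa meets inhaled metals and chemicals directly, and its sustentacular cells, the supporting cells of the olfactory epithelium, are rich in detoxifying enzymes.

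Markers of the labelled tissue were present. Omp, the marker of mature olfactory neurons, lay between 4251.1 and 21778.7 over the 8 arrays, and Cyp2f2, a sustentacular cell cytochrome, between 13644.6 and 46946.9. Signal of the Ccl3 probe set ran opposite to the labelled genotypes, at 727.3 to 812.2 on the 4 arrays labelled Ccl3-/- and 159.4 to 386.5 on the 4 C57BL/6 arrays. The deleted stretch of Ccl3 is not specified, so groups are called by their labels and every genotype direction rests on them. Replicate 1 of the C57BL/6 carrier group stood apart. Its ratio of Gapdh 3′ to 5′ control signal, a measure of RNA integrity, was 2.59 against 0.755 to 1.31 on the other 7 arrays. The same ratio for Actb did not single it out, at 1.58 against 1.61 to 2.17.

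The members did not separate the groups after adjustment. In limma, with Benjamini-Hochberg adjustment over 8150 probe sets, 0 of the 11 member probe sets had an adjusted p under 0.05 in any of 7 comparisons, and the background was 0% of all probe sets in each. The 7 comparisons were Ccl3-/- against C57BL/6 after carrier and after CCL3, CCL3 against carrier in each genotype, the interaction, and the averages over both. At an unadjusted p under 0.05, 1 of 11 member probe sets was higher after CCL3 in each genotype and in the average of both, and it was a catalase probe set each time. The shares of all probe sets that were higher at that level were 2.77% in Ccl3-/- arrays, 1.98% in C57BL/6 arrays and 2.36% in the average. None of the 11 reached that level in either genotype comparison, in their average or in the interaction, where 11.4%, 1.48%, 5.93% and 5.06% of all probe sets did in either direction. With 2 arrays per group the intervals are wide, so these results do not show that the groups were alike.

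Mt1 (probe set 93573_at) and Mt2 (101561_at) were bright on every array and varied little. The deposited intensity, a linear brightness already scaled between arrays, was 43509.2 and 46995.7 for Mt1 on the Ccl3-/- CCL3 arrays and 43711.1 and 53937.4 on the C57BL/6 CCL3 arrays. It was 52554.4 and 58597.4 on the Ccl3-/- carrier arrays, against 59350.9 and 42025.0 on the C57BL/6 carrier arrays. Both the highest and the lowest Mt1 value thus belonged to the C57BL/6 carrier group, and the whole range over 8 arrays was 1.41-fold. Mt2 read 46331.8 and 55733.4 on the Ccl3-/- CCL3 arrays and 52370.3 and 64468.2 on the C57BL/6 CCL3 arrays. It read 61005.9 and 78002.7 on the Ccl3-/- carrier arrays, against 57937.8 and 49583.7 on the C57BL/6 carrier arrays. The Ccl3-/- carrier arrays held the first and the third highest Mt2 values of the 8, and they did not overlap with either the C57BL/6 carrier or the Ccl3-/- CCL3 arrays. Such a lack of overlap, in either direction, was common, at 38.5% and 38.9% of all probe sets in these comparisons.

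**Figure D1:**
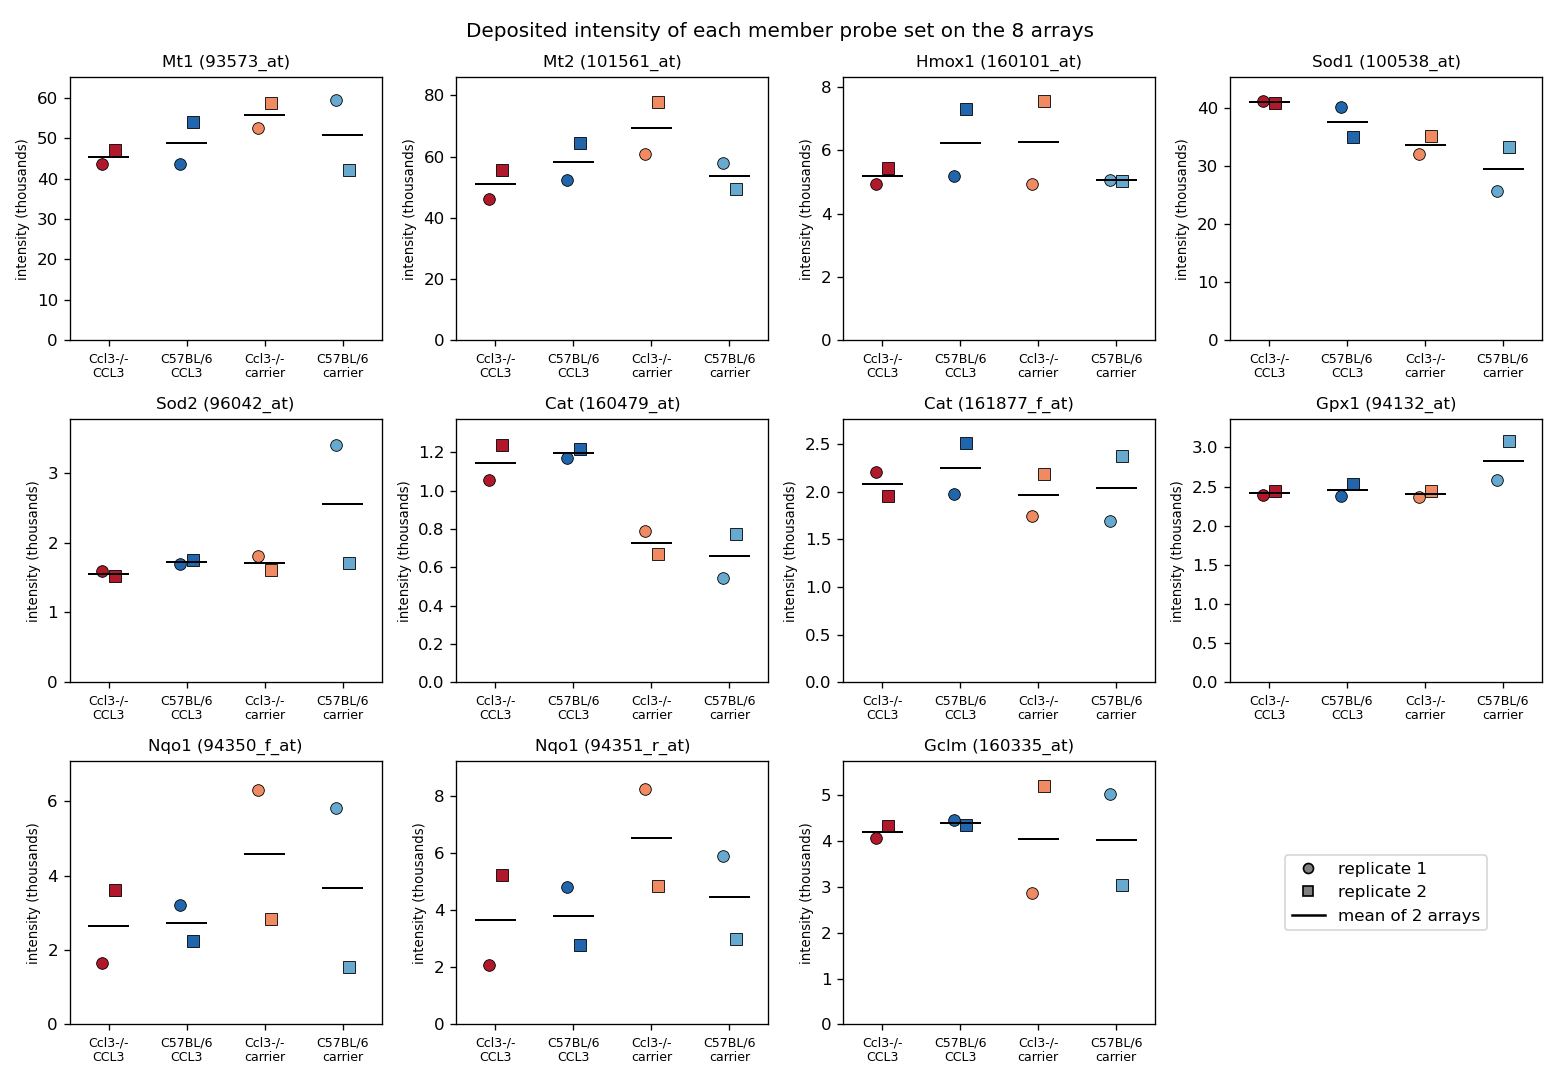
Intensity (linear axes from 0, labelled in units of 1000) of each member probe set on the 8 arrays, with circles for replicate 1, squares for replicate 2 and a line for the mean of 2 arrays. Catalase probe set 160479_at is the panel in which all CCL3 arrays, at 1054.9 to 1236.9, lie above all carrier arrays, at 545.1 to 787.9.

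None of the group differences of either metallothionein gene passed the test. All differences are on the log2(intensity + 102.3) scale, and positive values mean higher in the group named first. For CCL3 against carrier in Ccl3-/- arrays the Mt2 difference was -0.44 ± 0.23 (SE, n = 2 per group), with an adjusted p of 0.94 in limma. The same comparison in C57BL/6 arrays gave 0.12 ± 0.23 for Mt2, and the interaction of the 2 effects was -0.56 ± 0.32, with an adjusted p of 0.908 in limma. For Mt1 the corresponding values were -0.29 ± 0.24 in Ccl3-/- arrays, -0.04 ± 0.24 in C57BL/6 arrays and -0.25 ± 0.33 for the interaction. Ccl3-/- against C57BL/6 after carrier was 0.36 ± 0.23 for Mt2 and 0.15 ± 0.24 for Mt1. Both moved with single arrays: leaving out 1 at a time gave 0.19 (without Ccl3-/- carrier replicate 2) to 0.54 (without its replicate 1) for Mt2. For Mt1 it gave -0.097 (without C57BL/6 carrier replicate 2) to 0.40 (without its replicate 1). Both also depended on scaling, at 0.16 for Mt2 and -0.0069 for Mt1 under quantile normalization. After CCL3 the genotype differences were -0.19 ± 0.23 for Mt2 and -0.10 ± 0.24 for Mt1. In bulk tissue, more cells of a type and more RNA per cell cannot be told apart.

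Mt1 and Mt2 had similar profiles across arrays, in a relation that did not pass adjustment. Their log2 values had a Pearson r of 0.829 over 8 arrays (exact permutation test, two-sided, p = 0.00967; adjusted over 8 relations of Mt1 to other members, 0.0774) and a Spearman rho of 0.833 (exact permutation p = 0.0154, adjusted 0.123). Without the 2 C57BL/6 carrier arrays, which lay farthest from the Mt1 median, r was 0.962. The deviations of the 2 genes from their own group means had an r of 0.808, so the likeness was also seen within groups, though not for Mt2 alone. With 2 arrays per group, the deviations in a group mirror each other, so this r rests on few values. The same r with Mt1 was -0.837 for Sod1, 0.765 for Sod2, 0.718 for Gclm and 0.543 for Hmox1. It was -0.522 for Gpx1, -0.24 for Cat and 0.225 for Nqo1. Over the 8 arrays, most of the other relations were looser. There r with Mt1 was 0.541 for Hmox1, 0.537 for Sod2, 0.475 for Nqo1 and 0.469 for Gclm. For Gpx1 it was -0.253, for Cat -0.308 and for Sod1 -0.646. The exact permutation p of these 7 relations over 8 arrays ranged from 0.0751 to 0.674, and none passed after adjustment.

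Many other probe sets tracked Mt1 or Mt2 more closely than the 2 tracked each other. Among 7356 other named probe sets, Mt2 ranked 104th by r with Mt1, and Mt1 ranked 65th by r with Mt2. The 5 probe sets most like Mt1 over the 8 arrays were Fjx1 (r = 0.949), Sap30l (r = 0.945), Efhd2 (r = 0.94), Wdr26 (r = 0.928) and Nfkbia (r = 0.927). Those most like Mt2 were Ltf (r = 0.971), which encodes the iron-binding lactoferrin of glands and neutrophils, Usp3 (r = 0.954), the chitinase-like Chil1 (r = 0.951), Pigr (r = 0.949), the epithelial transporter of immunoglobulin A, and the chemokine Ccl2 (r = 0.935). These likenesses are descriptions over 8 arrays that share tissue content and RNA quality, with no test.

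**Figure D2:**
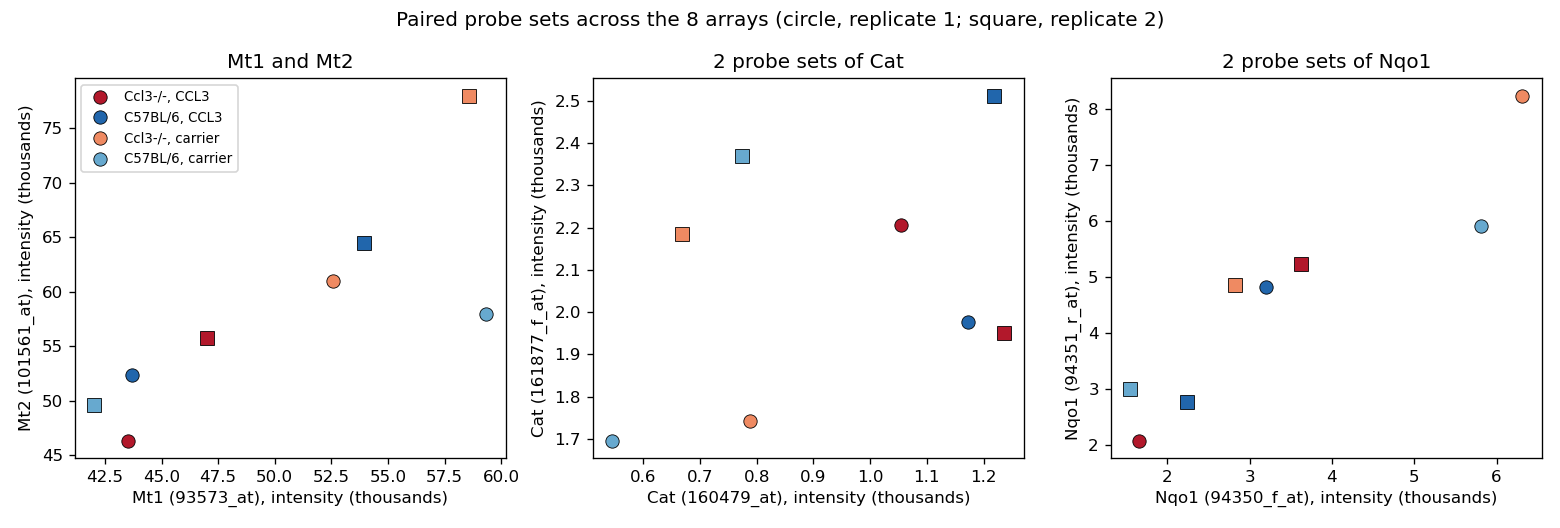
Intensity (axes in units of 1000, not starting at 0) of Mt2 against Mt1 and of the 2 probe sets of Cat and of Nqo1 against each other, 1 point per array, coloured by group, with circles for replicate 1 and squares for replicate 2. The points for Mt1 and Mt2 (r = 0.829) and for Nqo1 (r = 0.924) lie along a line, and those for Cat (r = 0.402) are scattered.

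The promoters of Mt1 and Mt2 are shown because the pair had similar profiles and because both genes are textbook targets of MTF1. Each window runs from 250 bases before to 50 bases after the start used in the RefSeq table for build GRCm38.p6, 5′ to 3′ on the plus strand of chromosome 8. Capitals mark the letters TGCACNC or TGCGCNC, the core of the metal response element, found on either strand.
Mt1, chr8:94178839-94179138: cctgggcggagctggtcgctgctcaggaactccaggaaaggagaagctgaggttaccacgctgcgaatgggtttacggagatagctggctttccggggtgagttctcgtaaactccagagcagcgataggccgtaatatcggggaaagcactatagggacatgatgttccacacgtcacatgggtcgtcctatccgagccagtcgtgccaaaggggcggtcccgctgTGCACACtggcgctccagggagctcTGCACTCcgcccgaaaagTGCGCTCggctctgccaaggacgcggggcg
Mt2, chr8:94172368-94172667: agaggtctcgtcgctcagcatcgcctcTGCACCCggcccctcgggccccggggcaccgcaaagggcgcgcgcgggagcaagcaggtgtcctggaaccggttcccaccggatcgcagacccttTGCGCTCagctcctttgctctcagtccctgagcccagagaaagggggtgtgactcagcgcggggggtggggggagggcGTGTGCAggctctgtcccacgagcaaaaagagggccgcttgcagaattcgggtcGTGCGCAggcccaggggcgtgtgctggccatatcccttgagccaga
The Mt1 window held 3 such cores and the Mt2 window 4. At least 1 core was present in 25.7% of 32851 windows of the same length, at least 3 in 1.97% and at least 4 in 0.517%. The Mt2 gene ends 5315 bases before the Mt1 gene begins. The annotated Mt1 gene starts 44 bases into its window, so the window belongs to 1 of its annotated starts and lies mostly inside the gene. That start may not be the usual one. Cores at bases 3 to 9 and 21 to 27 of Mt1 and 5 to 11 of Mt2 lay after the start used. A second motif, TGACNNNGC, the core of the antioxidant response element bound by NRF2, was searched on both strands. It occurred once in the Mt2 window, without overlap with a metal response core, and in none of the Mt1 window, against 12.4% of all windows.

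Of the other members with a window, Gclm held 3 metal response cores and 1 antioxidant core, which overlapped 1 of them. Sod1 and Prdx1 each held 1 antioxidant core. The windows of Sod2, Cat, Gpx1 and Nqo1 held neither set of letters. A match describes letters only, and a window without one says nothing about factors that act elsewhere.

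Hmox1 (160101_at), which encodes the enzyme that degrades haem to biliverdin, iron and carbon monoxide, had a nearly flat level with 2 exceptions. It read 4930.5 and 5426.5 on the Ccl3-/- CCL3 arrays and 5174.1 and 7282.8 on the C57BL/6 CCL3 arrays. It read 4929.3 and 7553.0 on the Ccl3-/- carrier arrays, against 5070.2 and 5031.8 on the C57BL/6 carrier arrays. Replicate 2 of the C57BL/6 CCL3 group and of the Ccl3-/- carrier group were the high arrays, and the other 6 lay between 4929.3 and 5426.5. The same 2 arrays also had the highest Mt2 values, and r between Hmox1 and Mt2 was 0.811 over 8 arrays. The group differences were 0.27 ± 0.29 and -0.24 ± 0.29 for Ccl3-/- against C57BL/6 after carrier and after CCL3. For CCL3 against carrier they were -0.23 ± 0.29 in Ccl3-/- arrays and 0.28 ± 0.29 in C57BL/6 arrays, and none passed the test. Probe sets most like Hmox1 were Akt1 (r = 0.968), Sprr2g (r = 0.947), Arnt (r = 0.94), Slc19a1 (r = 0.929) and Cln6 (r = 0.929).

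Sod1 (100538_at), the cytosolic copper-zinc superoxide dismutase, was bright and leaned higher after CCL3 without passing the test. It read 41219.7 and 40868.9 on the Ccl3-/- CCL3 arrays and 40265.5 and 34989.7 on the C57BL/6 CCL3 arrays. It read 32159.4 and 35171.1 on the Ccl3-/- carrier arrays, against 25787.3 and 33325.6 on the C57BL/6 carrier arrays. Within each genotype the CCL3 arrays lay above the carrier arrays. Of all probe sets, 38.9% in Ccl3-/- and 30.1% in C57BL/6 arrays did not overlap between injections, in either direction. Across genotypes a single pair overlapped, replicate 2 of the C57BL/6 CCL3 group and replicate 2 of the Ccl3-/- carrier group. The mean was 39336 ± 2920 over the 4 CCL3 arrays and 31611 ± 4080 over the 4 carrier arrays (SD). The average CCL3 difference was 0.32 ± 0.16 (SE, 95% interval -0.03 to 0.67), with an adjusted p of 0.969 in limma. It was 0.23 without C57BL/6 carrier replicate 1, the array with the high Gapdh ratio.

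Sod2 (96042_at), the mitochondrial manganese superoxide dismutase, was even on 7 arrays. It read 1593.0 and 1517.4 on the Ccl3-/- CCL3 arrays, 1688.6 and 1750.3 on the C57BL/6 CCL3 arrays, and 1811.2 and 1602.9 on the Ccl3-/- carrier arrays, against 3391.5 and 1708.8 on the C57BL/6 carrier arrays. The high value was again that of C57BL/6 carrier replicate 1, whose Gapdh ratio was high and whose Actb ratio was not; the part of RNA quality was not tested. The genotype difference after carrier was -0.48 ± 0.31 (SE) and was -0.004 without that array. Without the other C57BL/6 carrier array it was -0.95, with an adjusted p of 0.0947 in limma, the lowest of any member probe set in any refit. Over the refits of this Sod2 difference, the adjusted p ranged from 0.0947 to 0.995.

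Catalase, the peroxisomal enzyme that breaks down hydrogen peroxide, gave the clearest separation by injection, on 1 of its 2 probe sets. Probe set 160479_at read 1054.9 and 1236.9 on the Ccl3-/- CCL3 arrays and 1172.9 and 1218.4 on the C57BL/6 CCL3 arrays. It read 787.9 and 668.9 on the Ccl3-/- carrier arrays, against 545.1 and 773.8 on the C57BL/6 carrier arrays. All 4 CCL3 arrays lay above all 4 carrier arrays, with means of 1170.8 ± 81.8 and 693.93 ± 113 (SD). It was the only 1 of the 11 member probe sets without overlap between injections over both genotypes, against 1.58% of all probe sets that were higher without overlap and 2.72% in either direction.

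The average CCL3 difference of Cat on that probe set was 0.69 ± 0.19 (SE, 95% interval 0.27 to 1.10), or 1.61-fold on the log2(intensity + 102.3) scale. Its unadjusted p was 0.00413 and its adjusted p 0.967 in limma, so it did not pass over all probe sets. The difference was 0.59 ± 0.26 in Ccl3-/- arrays and 0.79 ± 0.26 in C57BL/6 arrays, with an interaction of -0.20 ± 0.37. Leaving out 1 array at a time gave 0.58 (without C57BL/6 carrier replicate 1) to 0.80 for the average, and other settings gave 0.54 to 0.77, with adjusted p from 0.103 to 1 over all of these. The members gave 77 such differences in all, over 7 comparisons.

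The other catalase probe set did not show the separation. Probe set 161877_f_at read 2205.4 and 1949.4 on the Ccl3-/- CCL3 arrays and 1976.4 and 2512.6 on the C57BL/6 CCL3 arrays. It read 1741.4 and 2186.1 on the Ccl3-/- carrier arrays, against 1695.5 and 2370.5 on the C57BL/6 carrier arrays. The injections overlapped, the average CCL3 difference was 0.11 ± 0.19 (SE), and r between the 2 catalase probe sets was 0.402 over 8 arrays. On this array type the ending f marks a probe set whose probes may match several transcripts of a family.

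Markers of 2 other cell contents, sustentacular cells and red cells, were set beside the catalase and Sod1 values. Summed over the 5 of 7 sustentacular markers on the array, intensity was 91081.2 and 101493 on the Ccl3-/- CCL3 arrays and 87065.9 and 103922 on the C57BL/6 CCL3 arrays. It was 81497.4 and 70927.4 on the Ccl3-/- carrier arrays, against 44192.4 and 85278.4 on the C57BL/6 carrier arrays. All CCL3 arrays lay above all carrier arrays by this sum, and none of its markers was at 0. Most of the sum came from Cyp2f2 and Cyp1a2, and by single markers Cyp2f2 alone separated the injections (1 of 5), at 40540.9 to 46946.9 after CCL3 and 13644.6 to 38292.8 after carrier. Without Cyp2f2 and Cyp1a2, the sum of the other 3 overlapped, at 13615 and 17395.5 on the Ccl3-/- CCL3 arrays and 10258 and 22077.4 on the C57BL/6 CCL3 arrays, against 15772 and 20491.4 on the Ccl3-/- carrier arrays and 11410.3 and 13560.2 on the C57BL/6 carrier arrays. The sum of 6 of 8 red cell markers was 85274 and 90772.8 on the Ccl3-/- CCL3 arrays and 58415 and 57277.7 on the C57BL/6 CCL3 arrays, against 47552.7 and 40647.6 on the Ccl3-/- carrier arrays and 58673.9 and 36445.2 on the C57BL/6 carrier arrays. Most of that sum was Hba-a1, and Hbb-b2 was the single marker of 6 without overlap between injections. Beside the counts of single markers in both lists, 1.58% of all probe sets were higher without overlap between injections. In either direction the share was 2.72%. Gene by gene, 5 of 5 tested red cell markers were higher after CCL3 in Ccl3-/- arrays at an unadjusted p under 0.05 in limma. At that level 1 of 5 was higher in C57BL/6 arrays and 3 of 5 in the average of both. The shares of all probe sets were 2.77%, 1.98% and 2.36%, and 0 of 5 passed after adjustment. The part of these cell types in the catalase and Sod1 values was not tested.

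Gpx1 (94132_at), the widely expressed cytosolic glutathione peroxidase, was the steadiest member. It read 2386.3 and 2439.7 on the Ccl3-/- CCL3 arrays, 2382.8 and 2535.6 on the C57BL/6 CCL3 arrays, and 2362.7 and 2442.9 on the Ccl3-/- carrier arrays, against 2580.9 and 3075.4 on the C57BL/6 carrier arrays. Both C57BL/6 carrier arrays were above the other 6. The genotype difference after carrier was -0.22 ± 0.23 (SE), and CCL3 against carrier in C57BL/6 arrays was -0.19 ± 0.23. These 2 comparisons share the C57BL/6 carrier arrays, and 38.5% and 30.1% of all probe sets did not overlap in them. The range over all arrays was 1.30-fold, and 98.0% of tested probe sets varied more between replicates.

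Nqo1, the quinone reductase that the NRF2 pathway controls, was the most variable member. Probe set 94351_r_at read 2080.5 and 5234.1 on the Ccl3-/- CCL3 arrays and 4815.7 and 2774.8 on the C57BL/6 CCL3 arrays. It read 8235.5 and 4856.7 on the Ccl3-/- carrier arrays, against 5918.7 and 3000.4 on the C57BL/6 carrier arrays. Replicates differed widely in each group, and the arrays overlapped in all 4 simple comparisons. Probe set 94350_f_at ran from 1549.8 to 6313.2 and gave the same picture, with r of 0.924 between both. It has the ending f, so its probes too may match several transcripts of a family. The largest difference, CCL3 against carrier in Ccl3-/- arrays on 94351_r_at, was -0.91 ± 0.49 (SE), with an adjusted p of 0.94 in limma. It was -0.27 without Ccl3-/- CCL3 replicate 1 and -1.56 without replicate 2 of that group. Only 5.29% and 1.46% of tested probe sets varied more between replicates than 94351_r_at and 94350_f_at.

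Gclm (160335_at), the modifier subunit of the enzyme that makes the glutathione precursor, was even after CCL3 and uneven after carrier. It read 4068.2 and 4320.1 on the Ccl3-/- CCL3 arrays and 4445.2 and 4353.5 on the C57BL/6 CCL3 arrays. It read 2867.4 and 5195.2 on the Ccl3-/- carrier arrays, against 5014.2 and 3028.4 on the C57BL/6 carrier arrays. Both genotypes thus had 1 high and 1 low carrier array, and all 4 CCL3 arrays lay between them. The average CCL3 difference was 0.14 ± 0.24 (SE), and that of genotype was -0.04 ± 0.24. The spread within the carrier groups, with SDs of 1650 in Ccl3-/- and 1400 in C57BL/6, exceeded any difference between group means.

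**Figure D3:**
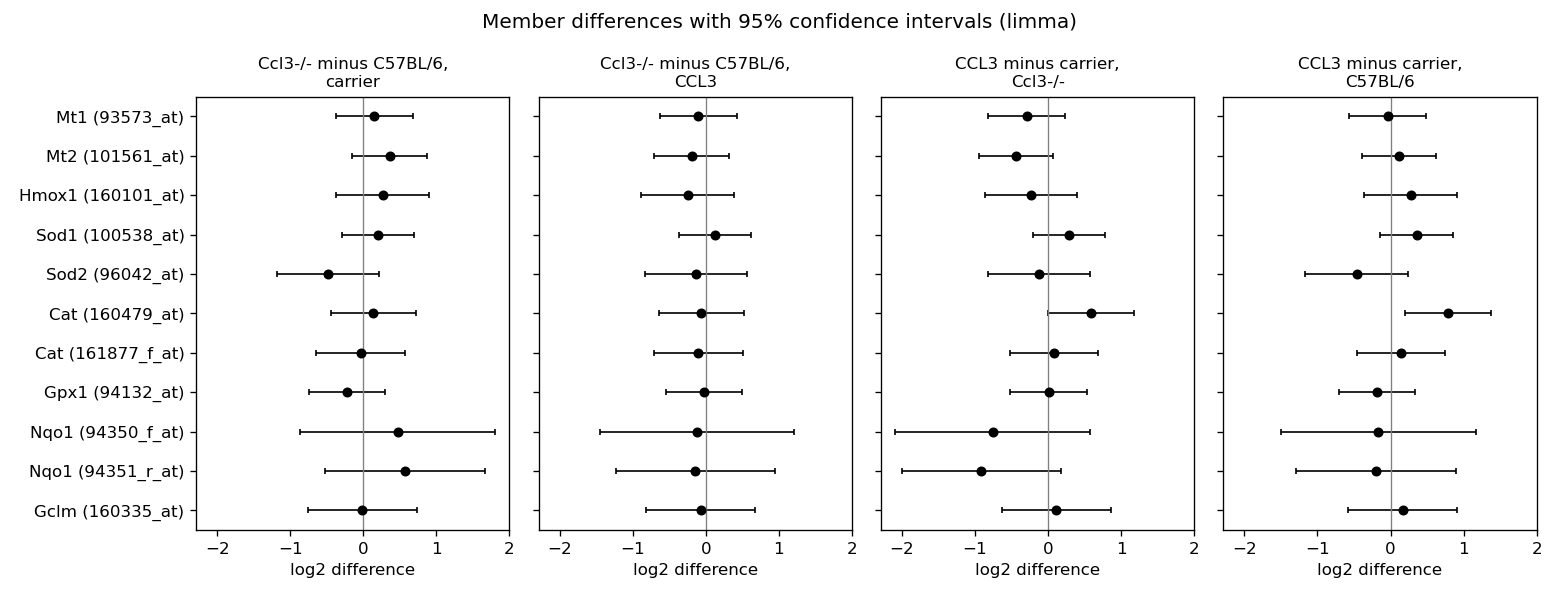
Log2 difference (points) with its 95% confidence interval (bars) from limma for each member probe set in the 4 simple comparisons, as the group named first minus the other. The intervals of catalase 160479_at lie above 0 for CCL3 against carrier in C57BL/6 arrays (0.20 to 1.37) and barely so in Ccl3-/- arrays (0.003 to 1.17), and every other interval covers 0.

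The members' medians lay near 0 in the 4 simple comparisons. The median log2 difference over the brightest probe set of each of the 9 genes was 0.15 for Ccl3-/- against C57BL/6 after carrier, with 5 genes above 0 and 4 below, beside -0.03 over all probe sets. After CCL3 the genotype median was -0.10, with 1 gene above 0 and 8 below, beside 0.02. Leaving out 1 array at a time gave -0.16 to -0.0004, so it came close to 0. The genes were measured on the same arrays, so the 8 below 0 are not separate results. For CCL3 against carrier the members' median was -0.12 in Ccl3-/- arrays (4 above, 5 below) and 0.12 in C57BL/6 arrays (5 above, 4 below), beside 0.03 and -0.02. The SD of the members' median between replicates was 0.14. Groups of 2 arrays did not overlap for 2 of 11 member probe sets after carrier between genotypes, where 38.5% of all probe sets did not. The counts were 3 of 11 after CCL3 between genotypes (29.4% of all), 5 of 11 for CCL3 in Ccl3-/- arrays (38.9%) and 4 of 11 for CCL3 in C57BL/6 arrays (30.1%). Over both injections, 0 of 11 separated the genotypes, where 3.19% of all probe sets did.

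The wider pathways were read from 7 lists. None of their tested genes passed after adjustment in limma, as for 0% of all probe sets, so the values below describe these arrays. Of 10 tested metal handling genes, Slc30a4, a zinc exporter, had a CCL3 difference of -0.82 ± 0.32 (SE) in Ccl3-/- arrays. Slc30a1, the plasma membrane zinc exporter that MTF1 also controls, was above the filter value of 362.7 on the C57BL/6 carrier arrays alone, at 377.5 and 583.6, against 166.1 to 354.8 on the other 6. It was tested only through the group where it was high, so its difference is not given. The median of the metal handling list lay between -0.02 and 0.15 over the 4 simple comparisons. The 7 tested genes of NRF2 regulation had medians between -0.10 and -0.01, and 0 of 7 reached an unadjusted p under 0.05 in any of the 7 comparisons.

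In the glutathione system, 7 of 10 genes were above 0 for Ccl3-/- against C57BL/6 after carrier, where 47.9% of all probe sets were. The median was 0.24, and 2 of 10 were higher at an unadjusted p under 0.05, against 5.03% of all probe sets. Gpx2, the glutathione peroxidase of epithelia and an NRF2 target, read 8798.4 and 11423.1 on the Ccl3-/- CCL3 arrays and 5774.9 and 14663.3 on the C57BL/6 CCL3 arrays. It read 17240.1 and 29934.5 on the Ccl3-/- carrier arrays, against 3964.9 and 8858.3 on the C57BL/6 carrier arrays. The Ccl3-/- carrier arrays stood above the other 6. The genotype difference after carrier was 1.92 ± 0.49 (SE), with an adjusted p of 0.363 in limma, and CCL3 against carrier in Ccl3-/- arrays was -1.17 ± 0.49, with an adjusted p of 0.94. Both differences rest on the Ccl3-/- carrier arrays, and 38.5% and 38.9% of all probe sets did not overlap in these comparisons.

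The thioredoxin and peroxiredoxin system showed medians between 0.06 and 0.13 over 10 genes. Prdx3, the mitochondrial peroxiredoxin, was at 0.68 ± 0.30 (SE) for Ccl3-/- against C57BL/6 after carrier. Among 8 haem and iron genes, the plasma haemoglobin binder Hp was at 1.85 ± 0.77 in that comparison. The haem binder Hpx was above 362.7 on the C57BL/6 carrier arrays alone, at 374.6 and 884.8, and read 136.9 to 255.6 on the other 6, so its difference is not given either. The 4 list medians of haem and iron handling lay between -0.22 and 0.09.

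The 8 tested genes of oxidant and NADPH sources were all above 0 for CCL3 against carrier in C57BL/6 arrays, with a median of 0.40, where 48.2% of all probe sets were above 0. That median was 0.01, with 4 genes above 0, without C57BL/6 carrier replicate 1, and 0.77 without replicate 2 of that group. Idh1, which makes NADPH in the cytosol, was the gene of that list with the smallest p for Ccl3-/- against C57BL/6 after carrier, at 1.07 ± 0.32 (SE). The list's median in that comparison was 0.34, and -0.05 without C57BL/6 carrier replicate 1.

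**Figure D4:**
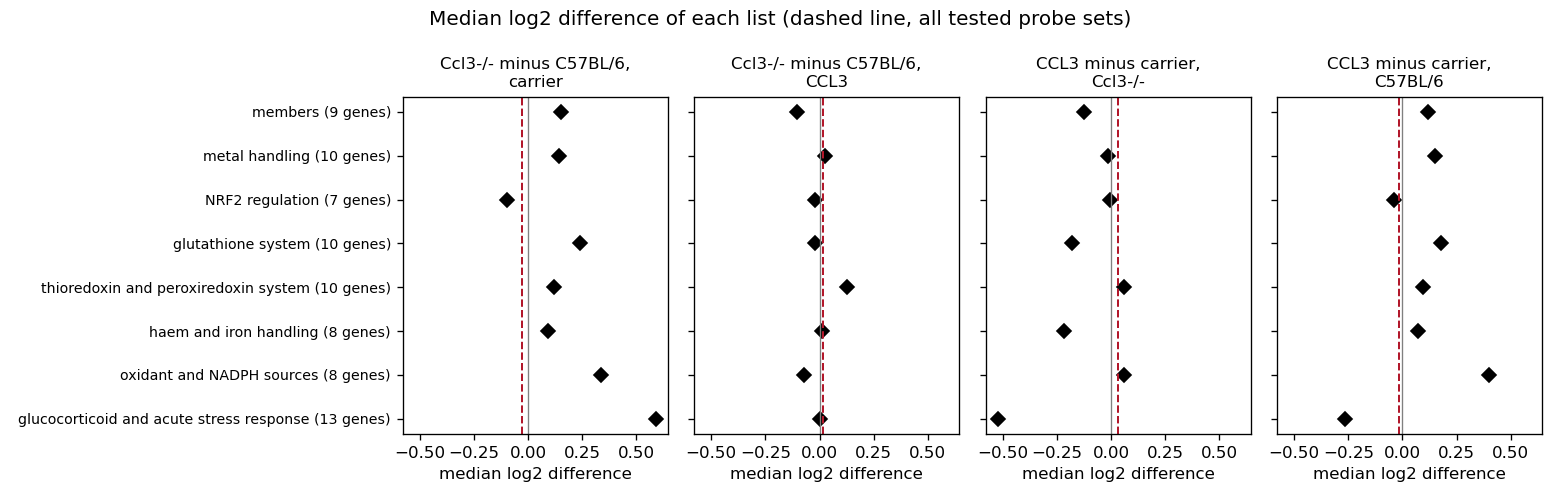
Median log2 difference (diamonds) of the members and of 7 pathway lists in the 4 simple comparisons, with the number of tested genes beside each name. The dashed line marks the median of all tested probe sets, and the stress list lies farthest from it, at 0.59 for genotype after carrier and -0.52 for CCL3 against carrier in Ccl3-/- arrays.

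The glucocorticoid and acute stress list holds genes induced by the same hormones and cytokines as the metallothioneins. After carrier, 12 of 13 were above 0 for Ccl3-/- against C57BL/6, with a median of 0.59, where 47.9% of all probe sets were above 0. The median was 0.22 without C57BL/6 carrier replicate 2 and 0.14 without Ccl3-/- carrier replicate 2. For CCL3 against carrier in Ccl3-/- arrays, 11 of 13 were below 0, with a median of -0.52, where 54% of all probe sets were above 0. In that comparison 6 of 13 were lower at an unadjusted p under 0.05, against 2.12% of all probe sets, and 3 of 13 without Ccl3-/- carrier replicate 2 and 2 of 13 without Ccl3-/- CCL3 replicate 1. Both comparisons use the Ccl3-/- carrier arrays. The gene of the list with the smallest p for CCL3 against carrier in Ccl3-/- arrays was Saa3. Its difference was -3.86 ± 0.97 (SE), with an adjusted p of 0.722 in limma. Saa3 read 74.8 and 333.5 on the Ccl3-/- CCL3 arrays and 3241.5 and 4742.8 on the Ccl3-/- carrier arrays. It was uneven on the C57BL/6 arrays, at 31.9 and 638.5 after CCL3 and 3563.0 and 341.8 after carrier.

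Socs3, a cytokine-induced inhibitor of STAT3 signalling, was the gene of that list with the smallest p after carrier. It read 2194.4 and 3121.4 on the Ccl3-/- carrier arrays, against 1417.2 and 880.0 on the C57BL/6 carrier arrays, and between 1036.1 and 1379.1 on the 4 CCL3 arrays. The genotype difference after carrier was 1.16 ± 0.30 (SE), with an adjusted p of 0.363 in limma, and 0.56 ± 0.30 on the other Socs3 probe set. Mt2, whose Ccl3-/- carrier arrays were also among the highest, differed less, at 0.36 ± 0.23. Neutrophil markers were set beside this list. Their sum over 8 of 8 was 75284.5 and 63977.2 on the Ccl3-/- CCL3 arrays and 58877.7 and 66577.5 on the C57BL/6 CCL3 arrays. It was 85172.8 and 98730 on the Ccl3-/- carrier arrays, against 65574.5 and 52623.9 on the C57BL/6 carrier arrays. Most of that sum was Ltf, which glands also make. Without Ltf it was 35132 and 12897.2 on the Ccl3-/- CCL3 arrays and 8315.9 and 6708.8 on the C57BL/6 CCL3 arrays, and 31623.2 and 16257.6 on the Ccl3-/- carrier arrays, against 13167.2 and 5475.3 on the C57BL/6 carrier arrays. Gene by gene, 7 of 8 markers were above 0 for Ccl3-/- against C57BL/6 after carrier (median 0.84), where 47.9% of all probe sets were. After CCL3, 6 of 8 were above 0 (median 1.09), beside a median of 0.02 over all probe sets. At an unadjusted p under 0.05 in limma, 3 of 8 were higher in each comparison, and 0 passed after adjustment. Of all probe sets, 5.03% were higher at that level after carrier, and 1.48% reached it in either direction after CCL3. The markers Ngp and Mpo were above the filter value of 362.7 on Ccl3-/- arrays alone. On C57BL/6 arrays they read at most 166.4 and 167.8. They were tested only through the genotype where they were high, so the marker counts and medians are partly set by the filter. None of the markers was at 0, and their part in the stress list or Mt2 was not tested.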

How the data were processed

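The deposited table holds 1 linear intensity per probe set and array, as the authors processed it. The software that made it is not given in the sources used here. Trimmed means (2% off each end) agreed within 0.00834% across arrays, so no further normalization was applied. Medians per array were 581.4 to 660.3. Probe sets were named from the platform annotation: of 12488, 10855 had 1 symbol, 396 several and 1237 none. Values were analysed as log2(intensity + 102.3), where the pseudocount is the 20th percentile of the table, which shrinks folds at low intensity. Testing required an intensity above 362.7, the 40th percentile, on at least 2 arrays. The 66 control probe sets were left out, and 8150 probe sets remained. limma 3.58.1 (R 4.3.3) fitted all 4 groups with an intensity trend and 4 residual degrees of freedom, and Benjamini-Hochberg adjustment ran over all 8150. The 2 to 8 arrays behind each value limit its precision.

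Every member was named, and so were the 5 probe sets most like Mt1, Mt2 and Hmox1. Each pathway list also gave, per simple comparison and direction, the gene with the smallest p if its unadjusted p was under 0.05. Medians used the brightest probe set of each gene. The members and lists were chosen with earlier results of these data known. Alternatives were quantile and single-median scaling, other pseudocounts, a floor, other filters, no trend, array weights, a replicate block, only the groups compared, an adjusted p under 0.1, all member probe sets, and each array left out. The medians of 3 lists under the alternatives, and marker sums without their brightest genes, were added after seeing the data. The methods were tested on simulated data. Promoters are from RefSeq (GRCm38.p6), which held 9 of the 10 members. Figures were drawn with matplotlib 3.10.9, and permutation tests used scipy 1.17.1.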

Additional observations from a re-analysis of the deposited data

How the results depend on the processing

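No member probe set had an adjusted p under 0.05 in limma under any alternative, in 1430 refits of 77 member differences, and the lowest adjusted p was 0.0947. The sign changed in 83 refits, in 41 of the 77 differences, and in none of the 3 with an unadjusted p under 0.05, all catalase 160479_at. The members' median for Ccl3-/- against C57BL/6 after carrier was -0.0069 under quantile scaling. Leaving out 1 array at a time gave medians of -0.034 to 0.27 for that comparison, -0.16 to -0.0004 for genotype after CCL3, -0.30 to 0.029 for CCL3 in Ccl3-/- arrays, -0.068 to 0.21 for CCL3 in C57BL/6 arrays, -0.41 to -0.0045 for the interaction, -0.135 to 0.071 for the genotype average and -0.13 to -0.04 for the CCL3 average. These fits take the spread of a lone array from the other groups. Over all probe sets the count past the threshold was 0 and, with 1 array left out, 0 to 113 for genotype after carrier, 0 to 1 after CCL3, 0 to 1 for CCL3 in Ccl3-/- arrays, 0 to 74 in C57BL/6 arrays, 0 to 6 for the genotype average and 0 to 20 for the CCL3 average. Array weights gave 1 each for genotype after CCL3 and the CCL3 average, fitting only the groups compared gave 1 for genotype after CCL3, and an adjusted p under 0.1 gave 1 for the genotype average. Replicate numbers were not shown to pair the arrays: replicate differences correlated between groups at -0.158 to 0.178. With the replicate block, 1 probe set passed for genotype after carrier, 1 for the genotype average and 1 for the CCL3 average, and no member passed. Precision is limited by having 2 arrays per group.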

Other observations

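Adh7, an alcohol and retinol dehydrogenase of the sustentacular marker list, was singled out after its values were seen. It read 10956.1 and 14430.4 on the Ccl3-/- CCL3 arrays and 7692.6 and 18451.2 on the C57BL/6 CCL3 arrays, against 12475.9 and 18484.6 on the Ccl3-/- carrier arrays and 8846.9 and 10822.0 on the C57BL/6 carrier arrays. Its highest values fell on replicate 2 of the Ccl3-/- carrier and of the C57BL/6 CCL3 group, the arrays with the highest Hmox1 and Mt2. Ltf was also highest on these arrays, at 82472.4 and 59868.7, against 40152.5 to 53549.6 on the other 6. Ltf was named above as the probe set most like Mt2 over the same arrays, so this is not a separate observation.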
